A study of Rattus norvegicus with 180 samples.

Results

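The miRNA profiles of brown and white adipose tissue were compared in 3 rats. The members are the 6 arrays whose titles name brown adipose tissue (3 arrays) or white adipose tissue (3 arrays) and animals 4, 5 or 6, out of 180 arrays in the series, and each brown sample was set against the white sample of the same animal. The series is an atlas of miRNA expression in 55 organs of the male rat, measured with 1-color microarrays. Animals 4, 5 and 6 were male Sprague-Dawley rats of 10 weeks, and all 3 were perfused with saline before the organs were taken, so both adipose tissues share that treatment. The labels name no fat depot for either tissue, and 1 sample per animal was taken of each. Signals of a whole tissue cannot tell fewer cells of a type from less RNA per cell.

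Brown adipose tissue burns fatty acids and glucose to make heat through the uncoupling protein Ucp1 in cells rich in mitochondria, whereas white adipose tissue mainly stores triglyceride. Brown fat cells develop from precursors related to those of skeletal muscle, and the tissue is densely supplied with capillaries. miRNAs are short RNAs that pair with messenger RNAs chiefly through their seed, the bases next to the 5′ end, and lower the output of those messengers. The pair miR-193 and miR-365 and the miRNA miR-378, which lies in the gene of the mitochondrial regulator Pgc-1β, have been studied in brown fat cells, and miR-133 is known as a repressor of the brown fat regulator Prdm16.

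The sequences of the miRNAs that carry the main differences are shown first, 5′ to 3′, with the seed (bases 2 to 8) in capitals. They come from RefSeq on the rat genome build GRCr8. The first set holds miRNAs that were higher in brown adipose tissue, grouped by seed where they share one.
miR-378 (miR-378a-3p): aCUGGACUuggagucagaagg
miR-378* (miR-378a-5p): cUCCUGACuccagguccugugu
miR-193 (miR-193a-3p): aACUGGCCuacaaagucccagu
miR-365 (miR-365-3p): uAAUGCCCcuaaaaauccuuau
miR-30e (miR-30e-5p): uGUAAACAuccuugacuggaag
miR-30c (miR-30c-5p): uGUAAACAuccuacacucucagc
miR-30a (miR-30a-5p): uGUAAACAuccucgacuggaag
miR-19a (miR-19a-3p): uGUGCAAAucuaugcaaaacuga
miR-19b (miR-19b-3p): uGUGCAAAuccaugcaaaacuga
miR-20a (miR-20a-5p): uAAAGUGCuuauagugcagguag
miR-17-5p: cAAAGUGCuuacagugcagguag
miR-20b-5p: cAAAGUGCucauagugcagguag
The second set holds miRNAs that were higher in white adipose tissue, among them a pair with one seed, miR-221 and miR-222.
miR-218 (miR-218a-5p): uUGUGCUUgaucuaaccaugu
miR-221 (miR-221-3p): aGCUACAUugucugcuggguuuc
miR-222 (miR-222-3p): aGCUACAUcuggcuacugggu
miR-204 (miR-204-5p): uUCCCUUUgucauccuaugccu
miR-125b-5p: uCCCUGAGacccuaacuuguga
miR-140 (miR-140-5p): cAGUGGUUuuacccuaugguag
miR-130a (miR-130a-3p): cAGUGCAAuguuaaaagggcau

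Of 717 miRNAs on the array, between 131 and 149 were detected on a brown array and between 150 and 164 on a white array, where detection means that over 50% of the spots of a miRNA were well above background. 124 miRNAs were detected on all 6 arrays. No spot was saturated. A set of 37 miRNAs was detected on every one of the 180 arrays. Before scaling, the 75th percentile of the scanner's signal over this set lay between 1180 and 1509 on the brown arrays. It lay between 2305 and 3565 on the white arrays, so the brown arrays were the dimmer ones for this set. Signals are given below as scaled signal, in which this set of 37 miRNAs has an equal 75th percentile on each array. The profiles of the tissues were alike in broad terms. Across 425 miRNAs detected on at least 1 array, Pearson's r of log2 signals was between 0.980 and 0.997 among the brown arrays, between 0.988 and 0.996 among the white arrays, and between 0.944 and 0.967 between the tissues, as a description across miRNAs of shared abundance. Among the 54 other organs, white adipose tissue was the one nearest to brown (r = 0.965), while the vein was nearer to white adipose tissue (r = 0.978) than brown was.

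Whether a miRNA differed between the tissues was tested for the 144 miRNAs that every array of brown, of white or of both tissues detected, with limma on log2 scaled signals, animal as a block, and Benjamini-Hochberg adjustment over all 144. A miRNA is called here when its adjusted p lies under 0.05. On this scale 75 miRNAs were higher in brown adipose tissue, which is 52.1% of those tested, and 40 were higher in white, which is 27.8%. 29 were not called. Of the 144, 8 were detected on no brown array, of which 6 were called higher in white, and 1, called higher in brown, on no white array. These, and the others not detected on all 6 arrays, passed the filter through 1 tissue alone, so no p-value of the fit is given for them. Every one of the 115 called miRNAs had the same direction in all 3 animals, as did 127 of all 144 tested. 34 of the brown calls and 8 of the white calls exceeded 1 log2 unit, and 6 brown calls and none of the white calls exceeded 2, with extremes of 3.27 and -1.92.

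The split between the directions depends on how the arrays are put on one scale. The median log2 difference, brown minus white, over the 144 miRNAs was 0.29 on this scale, with 0.28, 0.28 and 0.29 in animals 4, 5 and 6. It was -0.41 when the miRNAs detected on the 6 adipose arrays supplied the 75th percentile, with 33 miRNAs called higher in brown and 81 in white. With the 75th percentile over all miRNAs the counts were 45 and 62, with quantile normalization 40 and 58, with the median of the detected miRNAs 45 and 58, in the values normalized by the authors 37 and 59, and with each array centred on the median of the tested miRNAs 50 and 60. The point that sets the present scale was a single miRNA on each array, which was miR-29a or miR-16 on the brown arrays and miR-21 or miR-24 on the white arrays. 30 of the 75 brown calls and 40 of the 40 white calls were called in the same direction on this scale and on all 6 of the other scales. The larger differences described below are among these unless it is said otherwise, and 0.29 is the level that a difference has to be read against.

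**Figure D1:**
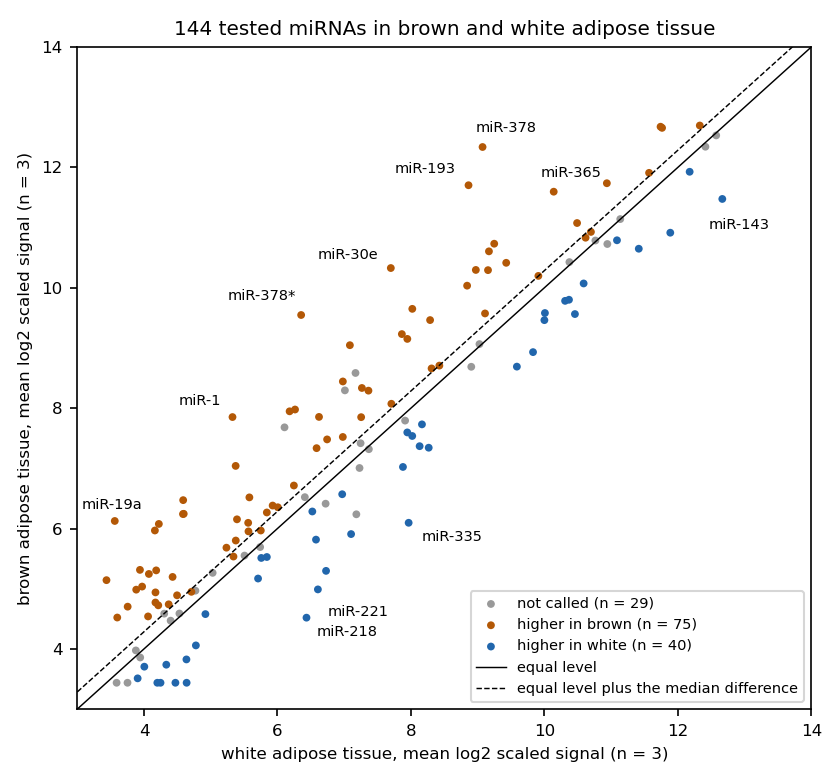
Mean log2 scaled signal of each of the 144 tested miRNAs in white (x axis) and brown adipose tissue (y axis), 3 arrays each. Points are colored by call, the solid line marks equal levels and the dashed line lies higher by the median difference of 0.29. miR-378, miR-378*, miR-193 and miR-30e stand farthest above the lines, and miR-218, miR-335 and miR-221 farthest below.

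Both arms of the miR-378 hairpin led the list. In brown adipose tissue miR-378 had scaled signals of 4928, 4802 and 5870 in animals 4, 5 and 6, against 613, 446 and 571 in the white adipose tissue of the same animals. All 3 brown samples lay above all 3 white samples. The difference was 3.27 ± 0.11 (SE) log2 units, a ratio of 9.61 (limma, adjusted p = 0.000177), and it stayed between 2.57 and 3.27 on the other scales. The other arm, miR-378*, gave 814, 755 and 682 in brown against 89.4, 80.0 and 76.6 in white, a difference of 3.19 ± 0.06 (adjusted p = 8.92e-05). The 2 arms thus differed between the tissues by nearly equal amounts although their signals differ, and signals of different probes are not compared in level here.

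Organs were ranked by mean log2 signal, whereas the printed means are of scaled signal. Across the 55 organs of the perfused animals, brown adipose tissue ranked first for miR-378. Its mean of 5200 ± 584 (SD, n = 3) was followed by the femoris muscle with 2178 ± 98.4 and the glandular stomach with 1932 ± 197, and no sample of those reached the lowest brown value. White adipose tissue was in place 14. For miR-378* the order began likewise with brown adipose tissue (750.2 ± 66.4), the femoris muscle (557.2 ± 56.6) and the gastrocnemial muscle (497.7 ± 60.3). First place for both arms was kept with the 75th percentile over all miRNAs and in the authors' table.

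miR-193 and miR-365 are encoded near each other at chr10:65170317-65184302 on the plus strand (GRCr8), with hairpins inside one annotated gene, Faul2. miR-193 read 3137, 2981 and 3965 in brown against 475, 415 and 512 in white, a difference of 2.84 ± 0.07 log2 units (limma, adjusted p = 0.000164). miR-365 read 2959, 2916 and 3438 in brown against 1270, 890 and 1271 in white, a difference of 1.46 ± 0.12 (adjusted p = 0.000842). For neither miRNA did the tissues overlap. A relative of miR-193, miR-193b, is not among the names on the array. RefSeq gives it as the following sequence, which differs from miR-193 by U9C (counted from 1 at the 5′ end, the base of miR-193 first) over the 19 bases compared.
miR-193b-3p: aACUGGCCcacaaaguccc
Whether the miR-193 probes also bind miR-193b was not tested. Brown adipose tissue ranked first of 55 organs for miR-193 (3361 ± 529), ahead of liver (809.2 ± 132) and white adipose tissue (467.3 ± 48.8). It also ranked first for miR-365 (3104 ± 290), and there white adipose tissue was second (1143 ± 220), close to the anterior stomach (1085 ± 268), from which it did not differ beyond their spread. These first places were kept with both other scalings tried for the ranks.

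**Figure D2:**
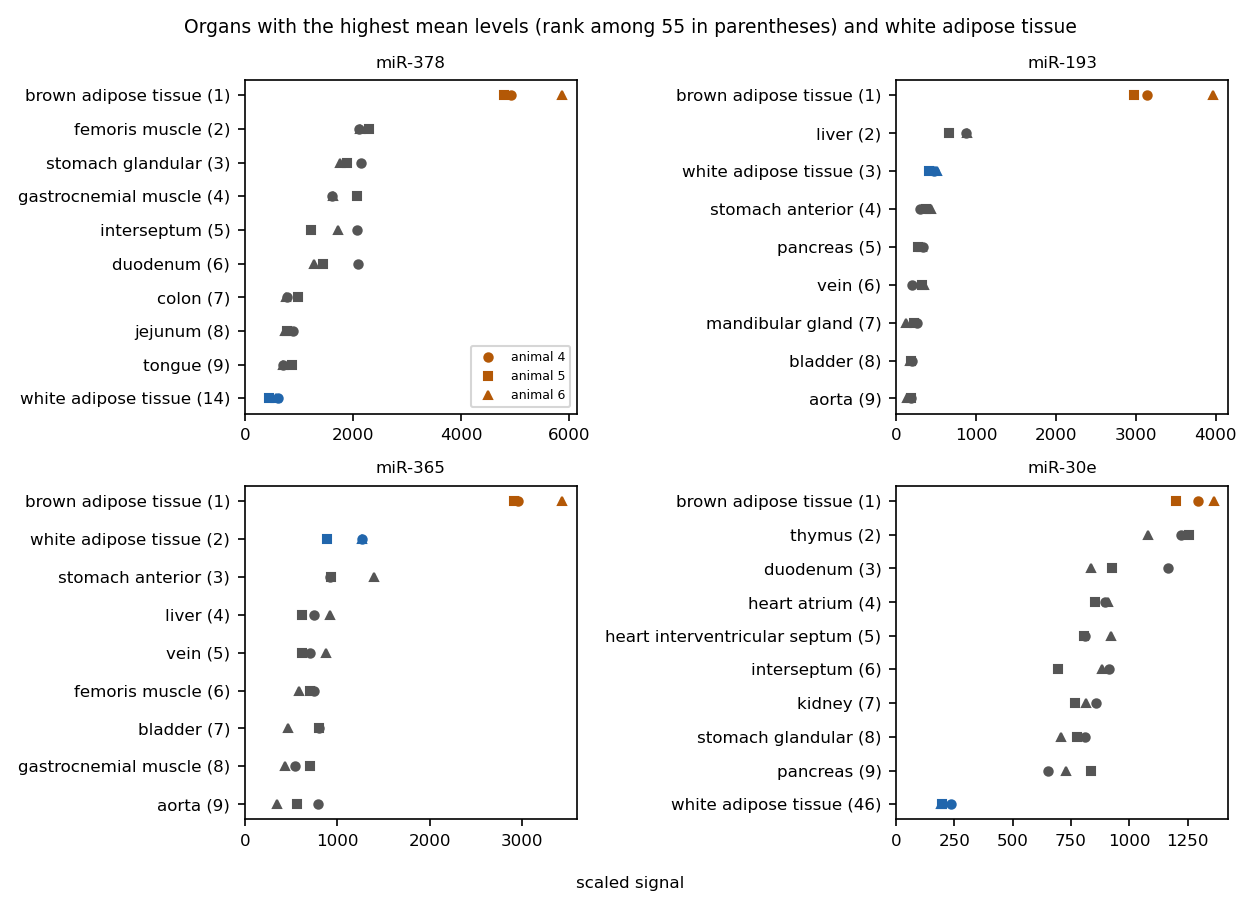
Scaled signal of miR-378, miR-193, miR-365 and miR-30e in the organs with the highest mean levels and in white adipose tissue, with 1 point per animal as titled and the rank among 55 organs in parentheses. For miR-378, miR-193 and miR-365 all 3 brown points lie above every point of the other organs shown, while for miR-30e brown adipose tissue and thymus overlap.

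The miR-30 family shares 1 seed and is abundant in many tissues. All 5 tested members were higher in brown adipose tissue, beside 52.1% of all tested miRNAs, with a median difference of 1.19. miR-30e read 1294, 1201 and 1365 in brown and 235, 196 and 194 in white, a difference of 2.63 ± 0.09 log2 units (limma, adjusted p = 0.000177). The other arm of its hairpin, miR-30e*, followed with 1.77 (adjusted p = 0.000177). miR-30e and one of the 2 hairpins of miR-30c lie together at chr5:139634455-139637541 (minus strand), the other hairpin of miR-30c lies beside miR-30a at chr9:33233941-33253765 (plus strand), and the array cannot tell them apart. miR-30c differed by 1.44 (1558 ± 29.9 in brown, 576.1 ± 26.2 in white). miR-30b-5p differed by 1.19, miR-30d by 1.18 and miR-30a by 0.99. The last of these, miR-30a, was not called on every other scale, where its difference was as low as 0.29. miR-30a and miR-30e differ by the single substitution C13U, counted from the 5′ end with the base of miR-30a first, and whether the probes of one also read the other was not tested. For miR-30e brown adipose tissue was first among the organs (1287 ± 82.3) and thymus second (1186 ± 93.9), which is within their spread, and with the 75th percentile over all miRNAs brown came in place 3.

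Members of the miR-17-92 cluster, which promotes proliferation and is active in precursor cells, form the next group. Of 9 tested members of this cluster and its relatives, 8 were higher in brown adipose tissue and none in white, beside 52.1% and 27.8% of all tested miRNAs. The median difference was 1.66. The 5 tested members of the cluster at chr15:98587848-98588632 (plus strand) were among them, of which miR-17-5p, miR-19b and miR-92a are also matched to a hairpin on the X chromosome. miR-19a read 75.8, 62.3 and 72.0 in brown and 13.5, 11.0 and 11.1 in white, close to the floor of 10.8 to which lower signals were raised before log2, so that its difference of 2.56 ± 0.08 log2 units (limma, adjusted p = 0.000173) is measured against very low levels and was 1.49 with another background correction (normexp) and 0.69 with a floor 4 times as high. miR-19b, which differs from miR-19a by U11C (base of miR-19a first), was well above the floor in both tissues with 554, 485 and 550 against 148, 132 and 129, and its difference was 1.96 ± 0.08. miR-20a differed by 1.71, miR-17-5p by 1.66 and miR-92a by 1.46. The relative miR-20b-5p, encoded on the X chromosome, differed by 1.67, and it has the seed of miR-17-5p and miR-20a.

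Other miRNAs higher in brown adipose tissue belong to no common family. miR-210, a miRNA induced by low oxygen, read 70.5, 66.6 and 65.4 against 19.8, 21.0 and 15.7, a difference of 1.85 ± 0.10 (limma, adjusted p = 0.000328). miR-499, encoded within the myosin gene Myh7b, read 91.1, 73.9 and 104 against 31.5, 16.4 and 26.8, a difference of 1.88 ± 0.14 (adjusted p = 0.000814). miR-1949, encoded within Matr3, varied more among animals, with 75.2, 33.3 and 97.7 in brown against 23.4, 8.65 and 22.7 in white. In each animal its brown sample was the higher one, and the difference was 1.80. It was not detected on all 6 arrays and entered the test through 1 tissue alone, so no p-value is given. With a floor 4 times as high miR-1949 was not called (0.66), and miR-210, miR-499 and miR-17-5p differed by 0.64, 1.03 and 0.80. miR-322, which is processed from an X-linked cluster, differed by 1.63, miR-29b by 1.48, miR-34a by 1.32 and miR-203 by 1.23. miR-652* differed by 1.65 while the other arm of the same hairpin, miR-652, was not called at -0.22 and was called higher in white in 9 of 21 alternatives.

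The miRNAs that were higher in white adipose tissue kept their calls on every scale tried. With normexp background correction, which was run on the median spot signal with an offset of 50 and so changed the signal used as well, 14 of the 40 were called higher in brown instead. miR-218, whose hairpins lie within the guidance genes Slit2 and Slit3, read 86.4, 85.1 and 88.1 in white and 23.7, 24.1 and 21.1 in brown. The tissues did not overlap, and the difference was -1.92 ± 0.08 log2 units, a ratio of 3.77 (limma, adjusted p = 0.000184), and -0.21 with normexp. miR-335, which is known to lie in the gene Mest that marks expanding fat tissue, read 222, 263 and 267 in white and 62.1, 62.0 and 83.1 in brown, a difference of -1.87 ± 0.10 (adjusted p = 0.000328), and -0.90 with normexp. White adipose tissue took place 4 of 55 organs for miR-335, after pituitary gland, thyroid and thalamus. miR-204, encoded within Trpm3, read 98.9, 119 and 101 in white and 55.7, 32.8 and 33.3 in brown. Its difference was -1.43 ± 0.23 (adjusted p = 0.00595), with the animals ranging from -0.83 to -1.86, and its call was lost with normexp (-0.20).

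miR-221 and miR-222 are encoded together at chrX:6022621-6023290 (plus strand). miR-221 read 109, 85.6 and 98.6 in white against 33.1, 27.9 and 34.6 in brown, a difference of -1.62 ± 0.07 (limma, adjusted p = 0.000239). miR-222 read 23.0, 16.0 and 18.7 in white and was not well above background on any brown array. It entered the test through the white arrays alone, so no p-value is given, and it was at least 1.35-fold higher in white. Such bounds take, for each dim array, the lowest signal among its detected miRNAs, or its own signal where that is higher. With normexp miR-222 turned to 0.57 and miR-221 was not called (-0.22). miR-143 and miR-145, abundant in smooth muscle and known to act in fat cell formation, are another linked pair. miR-143 read 6780, 6438 and 6291 in white against 2938, 2971 and 2645 in brown, a difference of -1.19 ± 0.06 (adjusted p = 0.000328), whose call was lost when spots were summarised by their median (-1.12). The difference of miR-145 was -1.20 ± 0.14 with 139.6 ± 29.1 in white against 61.3 ± 15.5 in brown, and -0.29 with normexp. Both genes are also strong in organs with smooth muscle: the anterior stomach led for miR-143 with 25213 ± 3345, and white adipose tissue was in place 8 there. How much vessel wall each fat sample held was not tested.

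miR-125b-5p, a regulator of differentiation in many lineages, read 3824, 3914 and 3627 in white and 2044, 1841 and 1912 in brown, a difference of -0.97 ± 0.07 (limma, adjusted p = 0.000752). miR-140, encoded within Wwp2 and best known from cartilage, differed by -0.92 and its other arm miR-140* by -0.86. miR-130a, reported to repress the fat cell regulator Pparγ, differed by -0.90 (769.9 ± 36.7 in white against 413.2 ± 20.0 in brown). miR-10a-5p, encoded in a Hox cluster, differed by -0.89. The other tested Hox cluster miRNA, miR-10b, was called higher in brown at 0.29, about the median of all tested miRNAs. miR-327 had the least even difference, with 27.8, 13.0 and 42.8 in white and no brown array well above background, at least 1.77-fold. It entered the test through the white arrays alone, so no p-value is given. Its call was lost without animal 4 and with a floor 4 times as high, and with normexp the difference was 0.41.

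**Figure D3:**
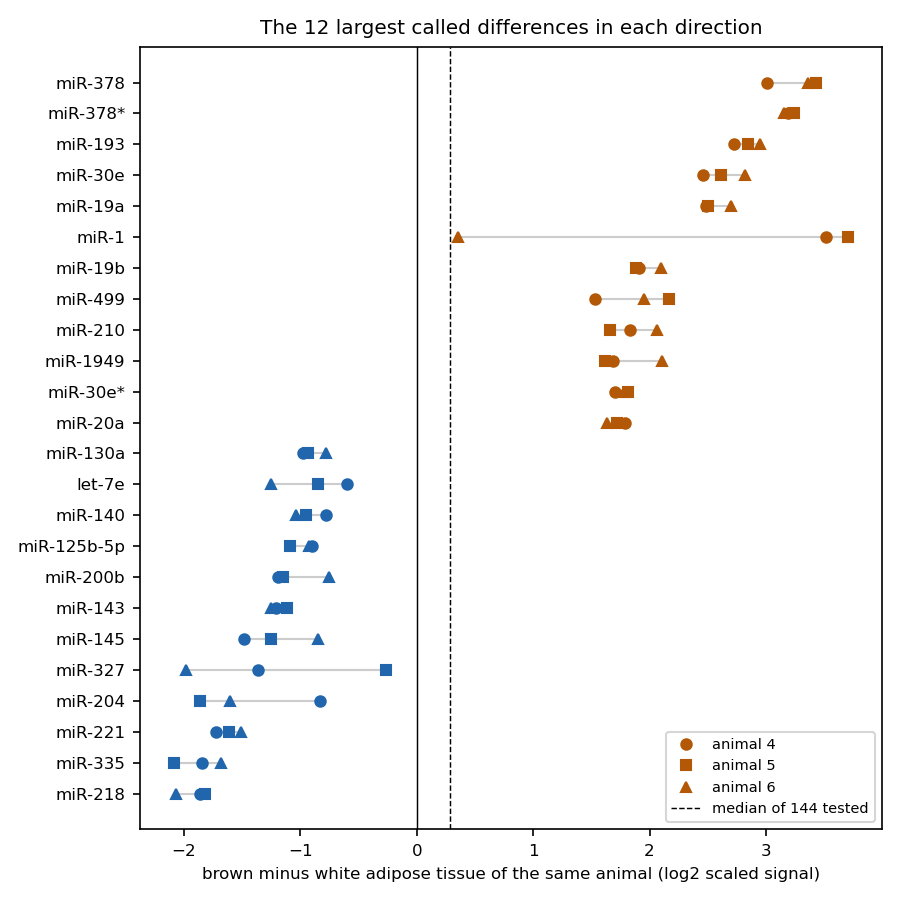
Brown minus white difference within each animal (log2 scaled signal) for the 12 largest called differences in each direction, with 1 symbol per animal. The solid line marks 0 and the dashed line the median of 0.29 over the 144 tested miRNAs. All 3 animals lie on one side of 0 for each miRNA, and miR-1 is the one with the widest spread, from 0.35 to 3.71.

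Related miRNAs did not always move together. Of the 144 tested miRNAs 87 were matched to a mature sequence, and 18 seeds were shared by 2 or more of them. For 5 of these seeds the members were called in both directions on the present scale, but the brown calls of some rest on small differences that other scales do not keep (miR-146a beside miR-146b, for example). Within the let-7 family, which holds back proliferation, let-7b was higher in brown (6572 ± 759 against 3425 ± 147, 0.93 log2 units, limma, adjusted p = 0.000855), let-7e was higher in white (911.3 ± 62.0 against 497.2 ± 112, -0.90, adjusted p = 0.00611), and 5 of the 8 tested members were not called. The call of let-7b was lost on the scale with the median of -0.41, where its difference was 0.23. Their sequences differ at 3 bases, U9G, G17A and G19A (base of let-7b first), all outside the seed.
let-7b (let-7b-5p): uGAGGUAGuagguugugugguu
let-7e (let-7e-5p): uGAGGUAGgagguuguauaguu
In the family of miR-15 and miR-16, miR-322 (1.63) was higher in brown, while miR-195 (-0.53) and miR-497 (-0.54), which are encoded side by side on chromosome 10, were higher in white. miR-16 was called higher in brown at 0.59 and turned to -0.11 on the scale with the median of -0.41.
miR-322 (miR-322-5p): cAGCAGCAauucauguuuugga
miR-195 (miR-195-5p): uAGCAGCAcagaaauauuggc
miR-107 and miR-103 act in insulin signalling and lie in the pantothenate kinase genes Pank1 and Pank2. They differ only by G22C (base of miR-103 first). miR-107 was higher in brown, with 1284, 1444 and 1064 against 663, 475 and 589 (1.14 log2 units, limma, adjusted p = 0.00558), a call that was lost on 2 of the other scales, and miR-103 was not called, with 627, 483 and 507 against 566, 493 and 508 (0.04, adjusted p = 0.641). On all 6 other scales the difference of miR-103 was below 0. Whether the probes of these near-identical miRNAs read each other was not tested.
miR-103 (miR-103-3p): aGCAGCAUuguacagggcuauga
miR-107 (miR-107-3p): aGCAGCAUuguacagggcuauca

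**Figure D4:**
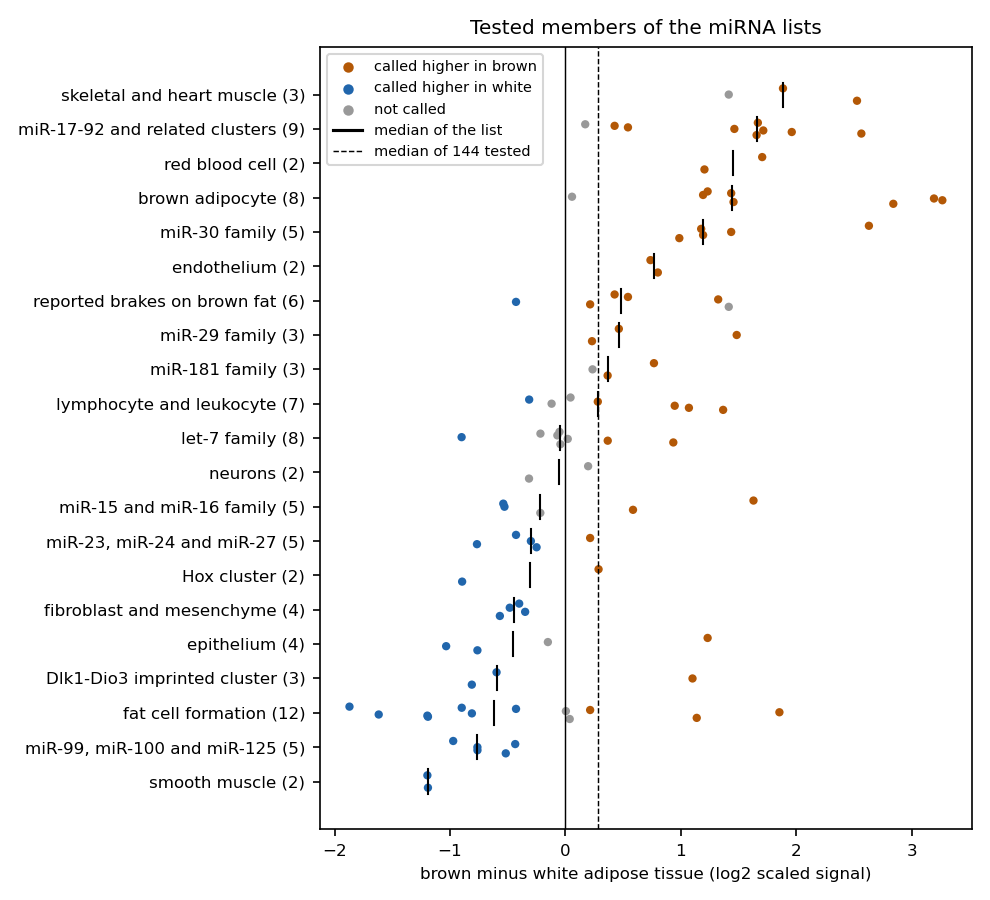
Brown minus white difference (log2 scaled signal) of the tested members of 21 miRNA lists, with the number of tested members in parentheses. Each point is a miRNA colored by call, the short bar is the median of its list and the dashed line the median of 0.29 over all 144 tested. The medians of the list of brown fat cell miRNAs and of the miR-17-92 list lie to the right of that line, and those of the smooth muscle list and of the list of miR-99, miR-100 and miR-125 lie to the left.

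For the lists of related miRNAs, medians are set beside the median of 0.29 over all tested, and counts beside the 52.1% of all tested miRNAs that were called higher in brown and the 27.8% called higher in white. Of 8 tested miRNAs named in studies of brown fat cells, 7 were higher in brown adipose tissue and none in white, with a median of 1.45. Of 6 tested miRNAs reported as brakes on brown fat, 4 were higher in brown, among them miR-34a, and 1 in white, miR-27b (-0.43), with a median of 0.48 that turned below 0 on the scale with the median of -0.41. Of 12 tested miRNAs known from fat cell formation, 3 were higher in brown (miR-107 and miR-210 among them) and 7 in white (miR-143, miR-221 and miR-335 among them), with a median of -0.62. All 5 members of the list of miR-99, miR-100 and miR-125 were higher in white (median -0.76), as were all 4 tested fibroblast miRNAs (median -0.44), miR-199a-3p among them. In the miR-23, miR-24 and miR-27 group 4 of 5 were higher in white, with miR-23b at -0.77. The 3 members of the miR-29 family were all called higher in brown on the present scale, but miR-29a (0.23) lay below the median of all miRNAs, and both it and the median of its family turned below 0 on some of the other scales. 9 of the 21 lists with at least 2 tested members had medians above that of all miRNAs.

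miR-150 and miR-142 mark lymphocytes and other white blood cells, and they were followed because fat pads can hold lymph nodes. miR-150 read 679, 531 and 600 in brown adipose tissue and 256, 222 and 222 in white. The tissues did not overlap, and the difference was 1.37 ± 0.07 log2 units (limma, adjusted p = 0.00031), or 0.67 on the scale with the median of -0.41. Its call was lost when spots were summarised by their median (0.66). Brown adipose tissue took place 5 of 55 organs for miR-150, after mesenteric lymph nodes (4899 ± 482), cervical lymph nodes (4299 ± 913), spleen (2787 ± 89.6) and thymus (1080 ± 204), and above bone marrow (544.8 ± 80.5), from which it did not differ beyond their spread. miR-142-3p read 305, 275 and 400 in brown and 194, 107 and 175 in white, a difference of 1.07 (adjusted p = 0.00529) that was not called in the values normalized by the authors (0.60). miR-142-5p was dim in both tissues and differed by 0.95, a call that 4 of the other scales did not keep. It was detected on 2 of 3 white arrays and entered the test through the brown arrays alone, so no adjusted p is given. Over these single values the exact permutation test of 3 against 3 samples gave p = 0.1 for miR-150 and miR-142-3p, the smallest it allows, and p = 0.2 for miR-142-5p.

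The lymphoid markers stood in different proportions in fat and in lymph nodes. In animals 4, 5 and 6 the miR-150 signal of brown adipose tissue was 15.6%, 10.4% and 11.5% of that in the mesenteric lymph node of the same animal, and the miR-142-3p signal was 2.05%, 1.29% and 2.21% of it. In white adipose tissue these shares were 5.88%, 4.35% and 4.24% for miR-150 and 1.30%, 0.504% and 0.962% for miR-142-3p. Shares of 9.74%, 6.05% and 7.21% of the mesenteric node's signal equal the whole miR-150 difference in animals 4, 5 and 6, and the same shares of miR-142-3p are signals of 1452, 1289 and 1309, beside the 305, 275 and 400 measured in brown adipose tissue. This takes the profile of the mesenteric node as fixed, and the part of lymph node or other lymphocytes in the miR-150 difference was not tested. Of the 11 listed lymphocyte and leukocyte miRNAs 7 were tested, of which 4 were called higher in brown and 1, miR-146b, in white. The summed signal of that list was 1555 to 1803 in brown and 1035 to 1149 in white. For all tested miRNAs the shares called were 52.1% in brown and 27.8% in white. The median of the list was 0.28, close to that of all miRNAs, and it was -0.42 on the lowest of the other scales. miR-342-3p, which like miR-150 was high in the mesenteric node (1122 ± 97.5), read 53.4, 44.4 and 43.5 in brown against 48.6, 46.3 and 41.7 in white and was not called, at 5.27%, 3.70% and 3.76% of the node in brown and 4.80%, 3.86% and 3.60% in white. On the 6 other scales its difference was below 0. miR-223, a marker of granulocytes, was not called (-0.12) but was called higher in white in 7 of 21 alternatives, and miR-146a was called at 0.28 but turned below 0 on all 6 other scales.

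Subtracting those shares of the mesenteric node from each brown array gives the other miRNAs without that part of the signal. miR-378, miR-193, miR-30e and miR-210 then differed by 3.26, 2.84, 2.58 and 1.85, and 11 of the 12 largest brown differences were called, as were 57 of the 75 brown calls. The one not called was miR-1, whose difference was 2.52 (limma, adjusted p = 0.0519) and thus nearly the same as without subtraction. In the same fit 49 miRNAs were called higher in white, 2 of them brown calls before subtraction, the median difference was 0.0029, and miR-142-3p was at -3.83 (limma, adjusted p = 0.000721), since more of it was subtracted than the brown samples held. miR-19a (2.13), miR-19b (1.54), miR-1949 (1.44) and miR-20a (1.37) lost part of their difference, and miR-150 was at 0 by construction. 37 of the 75 miRNAs higher in brown had brown signals above both lymph nodes in all 3 animals, and 26 had brown signals below the mesenteric node in all 3. These counts were made for the brown calls only, so no share over all tested miRNAs stands beside them and nothing is concluded from them. miR-19a, miR-19b, miR-20a and miR-1949 were not among the 37, and the part of lymphoid tissue in their differences was not tested.

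**Figure D5:**
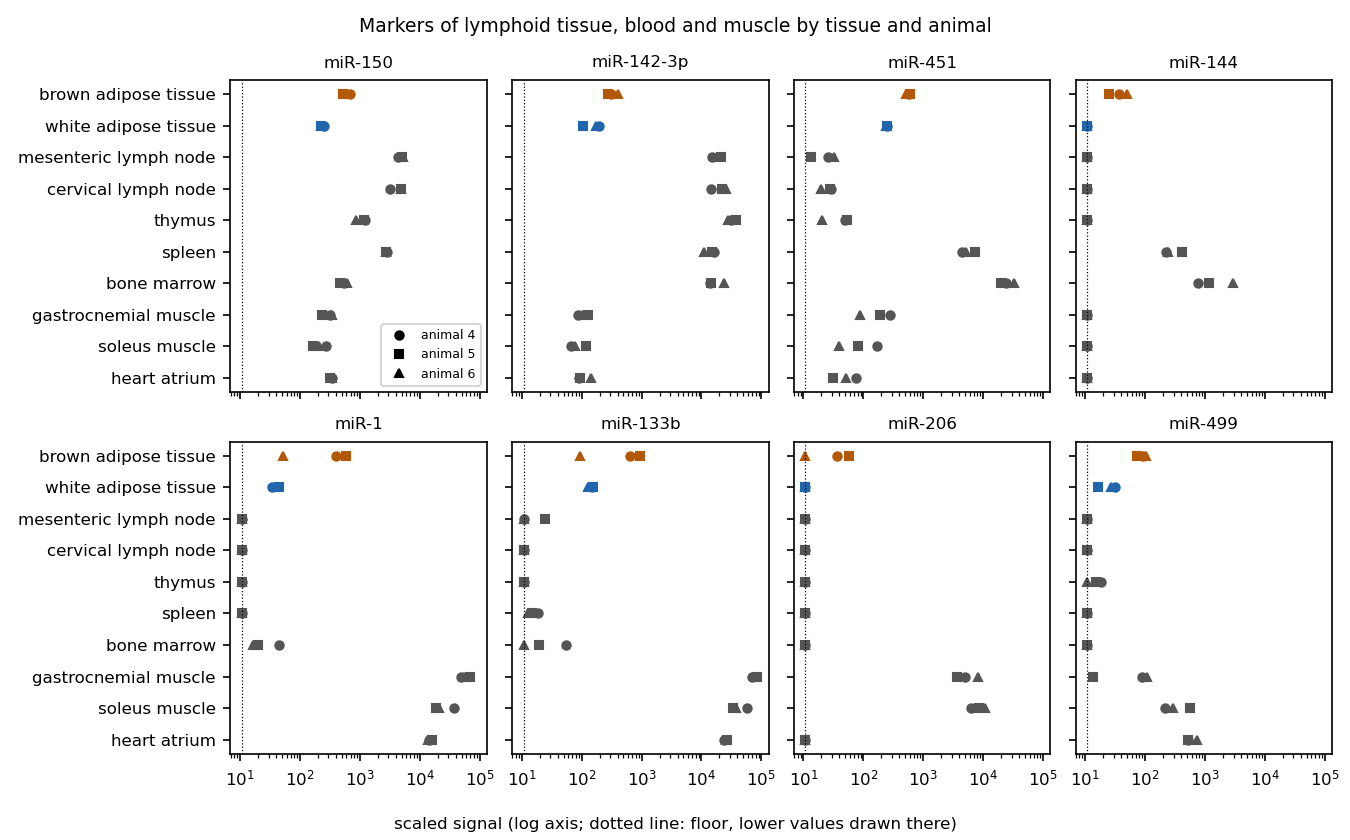
Scaled signal (log axis) of markers of lymphoid tissue (miR-150, miR-142-3p), red blood cells (miR-451, miR-144) and muscle (miR-1, miR-133b, miR-206, miR-499) in brown and white adipose tissue and 8 other tissues, with 1 symbol per animal as titled and values under the floor of 10.8 drawn at the floor. The brown samples of animals 4 and 5 stand apart from that of animal 6 for miR-1, miR-133b and miR-206, but not for miR-499.

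miR-451 and miR-144 come from 1 locus and are the leading miRNAs of red blood cells. miR-451 read 587, 595 and 525 in brown and 251, 245 and 244 in white, a difference of 1.20 ± 0.07 (limma, adjusted p = 0.000373, exact permutation p = 0.1). It was 0.48 on the lowest of the other scales, and the call was lost with all arrays of the perfused animals in the fit. miR-144 read 36.2, 24.7 and 49.3 in brown and was not well above background on any white array. It entered the test through the brown arrays alone, so no p-value is given. With white set to the floor of 10.8 its fitted difference was 1.70, a value that depends on the floor. Its 2 probe sequences gave 0.32 and 2.41. The call of miR-144 was lost in 2 of 20 alternatives, and its lowest difference was 0.06. Although all these animals had been perfused, brown and white adipose tissue took places 3 and 4 of 55 organs for miR-451 by mean log2 signal. They stood behind bone marrow and spleen, and brown adipose tissue held 2.41%, 2.96% and 1.61% of the bone marrow signal in animals 4, 5 and 6. The interseptum varied widely (402, 47.7 and 521), and its mean scaled signal of 324 exceeded the 247 of white adipose tissue. Lymph nodes held less miR-451 (14 to 33 in the mesenteric node) than either fat. The endothelial miR-126 differed by 0.80 and miR-126* by 0.74, both called higher in brown, but both calls were lost on the scale with the median of -0.41. The call of miR-126* was lost in 10 of 21 alternatives, and miR-126 stood at -0.01 when spots were summarised by their median. The part of blood left in the vessels was not tested.

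Muscle miRNAs set the brown sample of animal 6 apart. miR-1 read 397, 595 and 52.2 in the brown adipose tissue of animals 4, 5 and 6 and 34.7, 45.5 and 40.9 in white. It was called (2.53, limma, adjusted p = 0.0378), but its differences were 3.52, 3.71 and 0.35, and the call was lost without animal 4, without animal 5, on 3 of the other scales and in 10 of the alternatives in all. miR-133b followed with 640, 952 and 92.7 in brown against 151, 155 and 127 in white and was not called (adjusted p = 0.116), but was in 4 of 21 alternatives. miR-206, which is specific to skeletal muscle, read 37.0 and 57.3 in the brown samples of animals 4 and 5, and was not detected in that of animal 6 or on any white array. In animal 4 the brown signals of miR-1, miR-133b and miR-206 were 0.824%, 0.907% and 0.731% of those in the gastrocnemial muscle. In animal 6 those of miR-1 and miR-133b were 0.0956% and 0.115%, and miR-206 was not above background. In animal 5 they were 0.875%, 1.13% and 1.54% of the muscle array titled with that animal. The labels of its leg muscle arrays (femoris, gastrocnemial and soleus) disagree, with animal 5 in the title and animal 6 in the source name. The paper lists these arrays under rat 5, but the source name leaves the animal of that muscle uncertain. miR-208, which marks heart muscle, was detected on none of the 6 arrays. miR-499 did not follow this order, since it was highest in animal 6, and its brown signal was 42.6% and 35.6% of that in the soleus muscle in animals 4 and 6, and 13.3% of the soleus array with the uncertain animal. miR-378, miR-193, miR-365 and miR-30e were highest in the brown sample of animal 6, whereas miR-378* was lowest there (814, 755 and 682). The part of muscle in these differences was not tested.

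Markers of other tissues differed among themselves. No liver, pancreas, testis or ciliated epithelium miRNA of the lists was detected on any of the 6 arrays, and miR-122, the dominant miRNA of liver, read at most 5.06 in the adipose samples. The epithelial miR-200a and miR-200b were not well above background on any brown array and were dim on the white arrays, with 22.1, 16.9 and 16.5 for miR-200a and 24.8, 24.1 and 18.3 for miR-200b. They were higher in white by at least 1.31-fold and 1.58-fold, but entered the test through the white arrays alone, so no p-value is given. With normexp both turned above 0 (0.53 and 0.44). The call of miR-200b was also lost with all arrays of the perfused animals in the fit, with a floor 4 times as high and with no filter. The call of miR-200a was lost in 4 of 20 alternatives besides normexp. Of the 4 tested epithelial miRNAs 1 was called higher in brown, miR-203 of the skin, with 231.7 ± 15.1 in brown against 99.3 ± 15.0 in white (1.23). Of 2 tested neuronal miRNAs neither was called, and the 1 tested myelin miRNA was called higher in brown. The shares called among all tested miRNAs were 52.1% in brown and 27.8% in white. In skin miR-200a and miR-200b were detected on 3 of 3 arrays. Which cells of the fat carried the epithelial miRNAs was not tested.

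Single brown samples stood apart for 2 further miRNAs. miR-494_v15.0 read 106, 104 and 783 in brown and 76.1, 44.4 and 96.7 in white, and miR-1224 read 154, 155 and 1298 in brown and 120, 85.9 and 207 in white. Both were highest in the brown sample of animal 6, and among the white samples that of animal 6 was also the highest. Neither was called (limma, adjusted p = 0.0504 and 0.0699), although 8 and 5 of 21 alternatives called them. miR-3584-5p was high in the white sample of the same animal, with 102, 47.8 and 630 in white and 95.7, 29.7 and 151 in brown. It was not called either (limma, adjusted p = 0.0962), but was in 8 of 21 alternatives. Across the 55 organs, miR-494_v15.0, miR-1224 and miR-3584-5p each ranked highest in the pancreas. The source of their signal in animal 6 was not tested.

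The pair of animal 5 and the pair of animal 6 were each hybridised on 1 slide, and the samples of animal 4 were on 2 slides. Within those shared slides the differences were 3.43 and 3.36 for miR-378, 2.84 and 2.95 for miR-193, 2.61 and 2.82 for miR-30e, -1.82 and -2.06 for miR-218 and -2.09 and -1.68 for miR-335. The values over all 3 animals include these 2 pairs, so their closeness to them is no test of the slide. With slide as a random block in place of the animal block, 74 miRNAs were higher in brown and 42 in white.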

How the data were processed

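Total RNA of each organ was hybridised to 1-color Agilent rat miRNA arrays. The authors deposited scanner files made with Agilent Feature Extraction 10.7.3, whose processed signal is a background-subtracted intensity per spot that is not normalized between arrays, and a normalized table. Here spots marked as outliers were left out, the processed signal was averaged over the spots of a probe and then over the probes of a miRNA, and a factor per array set the 75th percentile of a scaling set to 2118, the mean over arrays. The set holds the 37 miRNAs that every one of the 180 arrays detected. A floor of 10.8 was then set and log2 taken. limma 3.58.1 in R 4.3.3 fitted tissue with animal as a block to the 6 arrays, since both tissues came from the same rat. Same-animal deviations correlated at 0.036, 0.64 and 0.53 in animals 4, 5 and 6, and those of different animals at -0.58 to 0.33. p-values were adjusted by the Benjamini-Hochberg method over all 144 miRNAs tested. The method was tried on simulated data, but no result of that is given here.

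Named miRNAs are the 12 largest called differences in each direction, the 4 checked markers (miR-150, miR-142-3p, miR-142-5p, miR-451), and members of the lists. Members and lists were chosen with earlier results of these data known, and the other named miRNAs were chosen after their values were seen. Alternatives changed the scaling, background, spot summary, floor, filter, block and animals, and centring on the median was added after seeing the data. The files hold no mean spot signal, so normexp was run on the median spot signal with an offset of 50. The number of arrays limits the precision. 715 miRNAs of the authors' table were matched. RefSeq's tables named loci and sequences on GRCr8.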

Additional observations from a re-analysis of the deposited data

How the results depend on the processing

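The split between directions followed the scaling. Against 75 brown and 40 white calls, the counts were 45 and 62 with the 75th percentile over all miRNAs, 33 and 81 over those detected on the 6 adipose arrays, 45 and 58 with the median over these, 40 and 58 with quantile normalization, 37 and 59 in the authors' table, 37 and 28 with the median of spots, 48 and 27 with a floor 4 times as high, 59 and 26 with all arrays of the perfused animals in the fit, 106 and 19 with normexp, and 22 and 6 of 717 with no filter. The median difference was -0.17, -0.41, -0.089, -0.13, -0.19, 0.013 and 0.0021 in the first of these alternatives, in that order, 0.70 with normexp and 1.03e-16 with no filter. It was also 0.37 for miRNAs detected on all 6 arrays, -0.10 after centring, 0.0029 after subtraction of the lymph node and 0.30 with slide as a random block. Brown calls went from 65.2% of all calls to 42.1% with the 75th percentile over all miRNAs. Without single animals the counts were 64 to 73 and 32 to 38, and the median was 0.29 to 0.32. The pairing is by animal, but the pairs of animals 5 and 6 also shared a slide, so animal and slide cannot be told apart there. With no replicate block the counts were 68 and 35.

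Single differences turned as follows. miR-103 was -0.42 (75th percentile, all miRNAs), -0.66 (75th percentile, adipose), -0.35 (centred), -0.34 (median), -0.67 (quantile) and -0.43 (authors' table). miR-29a was -0.23, -0.47, -0.16 and -0.14 with the first 4 of these scalings, -0.24 in the authors' table and -0.028 with the median of spots. miR-146a was -0.18, -0.42, -0.11, -0.093, -0.59 and -0.19 on these scales and -0.083 after subtraction. miR-342-3p was -0.41, -0.66, -0.34, -0.33, -0.39 and -0.43 on these scales and -2.07 after subtraction. miR-16 was -0.11 on the scale over adipose arrays, and miR-126 was -0.011 with the median of spots. With normexp miR-146b was 0.42, miR-200a 0.53, miR-200b 0.44, miR-222 0.57 and miR-327 0.41. Among the marker miRNAs, miR-150 was not called with the median of spots (0.66) or after subtraction (0, by construction). miR-142-3p was -3.83 after subtraction and not called with no filter (1.07) or in the authors' table (0.60). miR-142-5p was -0.32 after subtraction and not called on the scale over adipose arrays (0.40), when detection on 1 array was enough (0.95), with the floor 4 times as high (0), the median of spots (0.70), the median scale (0.66), no filter (0.95), quantile normalization (0.72) or the authors' table (0.68). miR-451 was not called with all arrays of the perfused animals in the fit (1.20). Apart from subtraction and the filter, whose construction sets these changes, the cause was not tested.

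Signals near the floor, 3 animals and an unknown fat depot limit these comparisons. Fitted differences of miRNAs that were not well above background in one tissue depend on the floor.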
